A study of Mus musculus with 12 samples.

Results

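The miR-29 family was examined in E18.5 fetal liver through its 3 mature members, mmu-miR-29a-3p, mmu-miR-29b-3p and mmu-miR-29c-3p. They were taken by name from the deposited miR-seq counts, where each has an entry of its own among 1927 entries, of which 682 held a read in at least 1 library. The livers came from female fetuses, collected late in gestation, on a C57BL/6J background. The 5 wild-type littermates (WT) were compared with 7 fetuses that inherited a constitutive deletion of the imprinted Mir483 from their father (Mir483Pat-KO). The allele was made by Cre excision in embryonic stem cells, from which 2 clones were injected, and which clone each fetus descends from is not given in the sources used here. Each library holds liver RNA of 1 fetus, from a mixture of cell types, so that fewer cells of a type and less RNA per cell cannot be told apart.

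Micro-RNAs (miRs) are short RNAs that pair with messenger RNAs mainly through the seed, bases 2 to 8 from the 5′ end, and lower their stability and translation. The miR-29 family is best known for repressing genes of the extracellular matrix, among them those of the fibrillar collagens, of elastin and of other matrix proteins. In liver it is known as a brake on fibrosis that is lost when hepatic stellate cells, the collagen-producing cells of the organ, become activated. Other known targets are DNA methyltransferases and the survival factor Mcl1.

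The 3 mature sequences are shown first because they set what the counts can and cannot separate. They are given 5′ to 3′ from RefSeq (GRCm38.p6), with the seed in capitals.
miR-29a-3p: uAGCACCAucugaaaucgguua
miR-29b-3p: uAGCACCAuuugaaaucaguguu
miR-29c-3p: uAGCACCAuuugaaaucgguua
All 3 carry the same seed, and among the 1679 mature mouse names in this reference no other name carries it. Counting positions from 1 at the 5′ end, miR-29a-3p and miR-29c-3p differ at 1 of 22 bases (C10U, with the base of miR-29a-3p first), an identity of 95.5%. Between miR-29c-3p and miR-29b-3p, 3 of the first 22 bases differ (G18A, U21G and A22U), and miR-29b-3p is 1 base longer. The 3′ end of miR-29b-3p holds the hexamer that has been described as a signal for import into the nucleus. How the authors' counting assigned a read with an error at position 10 could not be checked, so the split between miR-29a-3p and miR-29c-3p is uncertain to that extent.

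The members come from 4 hairpins in 2 pairs. Mir29a (chr6:31062660-31062747) and Mir29b-1 (chr6:31063023-31063093) lie on the minus strand of GRCm38, 275 bases apart. In the GENCODE annotation no other gene overlaps Mir29a, while the 5′ end of Mir29b-1 touches the long non-coding RNA gene Gm27019. Mir29b-2 (chr1:195037040-195037120) and Mir29c (chr1:195037547-195037634) lie on the plus strand. Both are inside an exon of a transcript of the non-coding gene A330023F24Rik, and on the opposite strand they overlap exon sequence of Cd46, which encodes a complement regulator. Because miR-29b-3p is the same in Mir29b-1 and Mir29b-2, its reads cannot be assigned to either pair.

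Library totals ran from 658665 to 1211160 miR reads. The label of the tissue was checked with the hepatocyte miR miR-122-5p, which lay between 118494 and 169645 CPM over the 12 libraries. CPM denotes the normalised read count, relative to the library total after TMM scaling. Summed markers of erythroid cells (4 of 4 detected) lay between 23825 and 31943 CPM in WT and between 25888 and 37774 CPM in Mir483Pat-KO. Those of stellate and mesenchymal cells (5 of 5 detected) lay between 30327 and 34308 CPM in WT and between 31110 and 36215 CPM in Mir483Pat-KO. Most of that sum is a single marker, miR-143-3p, with a mean of 29858 CPM in WT and 29742 CPM in Mir483Pat-KO, so the sum says little of the other 4. The targeted miR-483-3p averaged 1070 ± 103 CPM (SD, n = 5) among WT libraries and 15.2 ± 10.8 CPM (SD, n = 7) among Mir483Pat-KO libraries, in the direction the labels give. No marker of these lists, or of leukocyte, endothelial and biliary cells, was called by edgeR, and DESeq2 called 1 of 4 biliary markers against 26 of the 387 entries it gave a p for. An unadjusted edgeR p under 0.05 was found for 2 of 4 erythroid, 1 of 5 stellate and mesenchymal and 1 of 4 biliary markers, beside 17.5% of all entries tested. Among tested markers, the log2 fold change of Mir483Pat-KO over WT ran from 0.10 to 0.34 for erythroid and from 0.11 to 0.17 for leukocyte markers. It ran from -0.32 to 0.47 for stellate and mesenchymal, from -0.26 to -0.11 for endothelial and from 0.0060 to 0.39 for biliary markers.

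The miR-29 family was a minor part of the fetal liver miR pool. Its 3 members together took 155 to 338 reads per library, which is 0.0211% to 0.0279% of all counted reads. The summed family level was 241 ± 30.8 CPM (SD, n = 5) for WT fetuses and 237 ± 23.0 CPM (SD, n = 7) for Mir483Pat-KO fetuses. In WT this was 0.173% of the level of miR-122-5p, a comparison that does not correct for how well each RNA is ligated and amplified. All 3 members were read in all 12 libraries and passed the filter on low counts, which left 388 entries for testing. A floor of 3 counts corresponds to 2.57 to 4.67 CPM in these libraries, and every member was above it throughout.

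miR-29a-3p, the member of the chromosome 6 pair alone, was read 194, 141, 106, 122 and 99 times in WT replicates 1 to 5. These reads correspond to 166, 145, 142, 130 and 99.6 CPM. In Mir483Pat-KO replicates 1 to 7 it was read 94, 97, 110, 86, 83, 133 and 97 times, or at 109.1 to 151 CPM with a median of 131.7 CPM. WT replicate 1 was the highest and WT replicate 5 the lowest of all 12 libraries, so all 7 Mir483Pat-KO libraries lay within the WT range. Its mean of 137 ± 24.5 CPM (SD, n = 5) in WT placed it at rank 180 of the 388 tested entries, close to the middle, where the median entry was at 116.5 CPM.

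miR-29b-3p, made from both pairs, was read 105, 65, 47, 70 and 69 times in WT, at 63.1 to 90.1 CPM with a median of 69.4 CPM. The counts in Mir483Pat-KO were 47, 57, 73, 57, 57, 72 and 43, at 58.4 to 88.8 CPM with a median of 77.2 CPM. The genotypes overlapped, with 6 of 7 Mir483Pat-KO libraries inside the WT range and Mir483Pat-KO replicate 7 just below it. The mean for WT was 72.8 ± 10.5 CPM (SD, n = 5), and that for Mir483Pat-KO was 75.5 ± 10.3 CPM (SD, n = 7).

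miR-29c-3p, the member of the chromosome 1 pair alone, was the least read. Its counts were 39, 31, 22, 23 and 37 in WT, at 24.6 to 37.2 CPM with a median of 31.9 CPM. In Mir483Pat-KO they were 14, 21, 24, 32, 26, 29 and 20, at 19.6 to 43.4 CPM with a median of 32.7 CPM. Mir483Pat-KO libraries stood at both ends, replicate 4 being the highest and replicate 1 the lowest of the 12, and the other 5 lay within the WT range. At such counts a single library is imprecise. The 14 reads of Mir483Pat-KO replicate 1 have an exact (Clopper-Pearson) 95% interval of 10.7 to 33.0 CPM and the 32 reads of replicate 4 one of 29.7 to 61.2 CPM, which cover counting error only because amplified reads are not independent molecules.

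**Figure D1:**
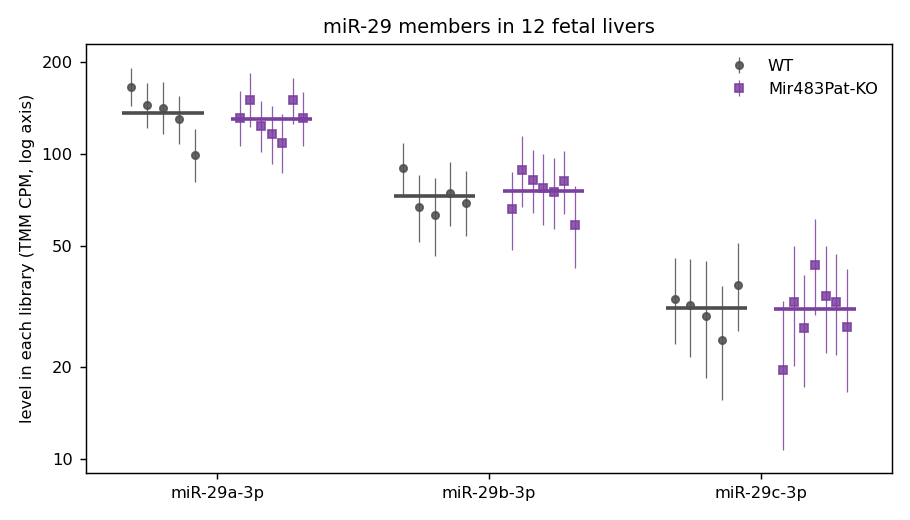
Level of each miR-29 member in each of the 12 libraries, in TMM CPM on a log axis, for WT (circles) and Mir483Pat-KO (squares); thin bars are exact 95% counting intervals and thick lines are group means. The 3 members form separate bands, from 99.6 to 166 CPM for miR-29a-3p, 58.4 to 90.1 CPM for miR-29b-3p and 19.6 to 43.4 CPM for miR-29c-3p, and within each band the genotypes overlap.

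The members kept the same order in every fetus. miR-29a-3p had more reads than miR-29b-3p in 12 of 12 libraries, by 1.78-fold on geometric average and by 1.43-fold to 2.24-fold in single libraries. miR-29b-3p in turn had more reads than miR-29c-3p in 12 of 12 libraries, by 2.39-fold on average and 1.77-fold to 3.28-fold in single libraries. The log2 ratio averaged 0.83 (SD 0.24, n = 12) for the first step and 1.26 (SD 0.29, n = 12) for the second. Both means differed from 0 (exact two-sided sign-flip permutation test on the log2 ratio, p = 0.000488 for each, also after Benjamini-Hochberg adjustment over the 2 steps, the smallest p that 12 fetuses allow). A ratio within a library does not depend on scaling, and the mature RNAs differ in length by at most 1 base, but the ratios do carry any difference in ligation between the members.

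As a share of the family's reads, miR-29a-3p made up 56.5% ± 4.84 (SD, n = 5) for WT and 55.1% ± 4.65 (SD, n = 7) for Mir483Pat-KO. The share of miR-29b-3p was 30.3% ± 3.04 (SD, n = 5) and 31.8% ± 2.80 (SD, n = 7), and that of miR-29c-3p 13.2% ± 2.87 (SD, n = 5) and 13.1% ± 3.01 (SD, n = 7). The make-up of the family was compared between genotypes through 3 ratios, and none of the differences passed the test. The log2 ratio of miR-29a-3p to miR-29b-3p was lower in Mir483Pat-KO by 0.11 (0.89 in WT and 0.79 in Mir483Pat-KO; two-sided exact permutation test over all splits of the fetuses, p = 0.457). That of miR-29a-3p to miR-29c-3p was 2.10 in WT and 2.08 in Mir483Pat-KO (the same exact test, p = 0.917). That of miR-29b-3p to miR-29c-3p was 1.21 in WT and 1.29 in Mir483Pat-KO (the same exact test, p = 0.631), and each p is 0.917 after adjustment over the 3 ratios.

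**Figure D2:**
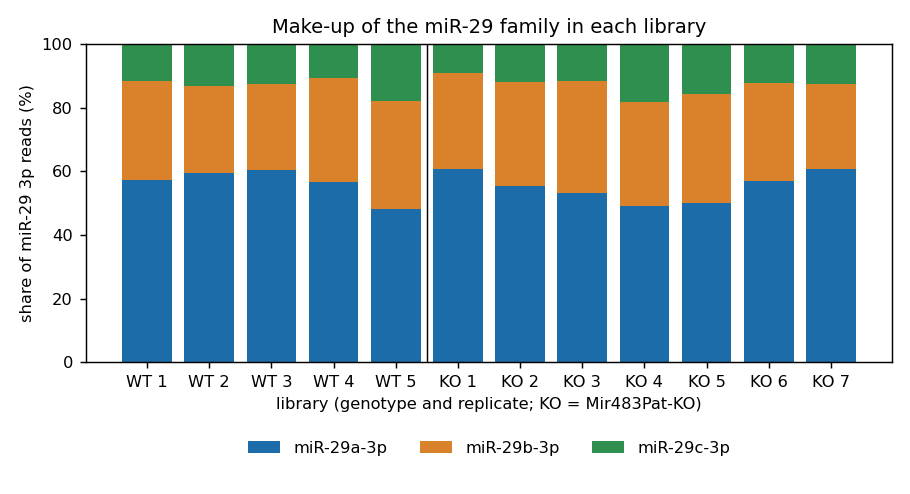
Share of miR-29 reads taken by each member in each library, in percent, with WT left and Mir483Pat-KO right of the vertical line. miR-29a-3p takes between 48.3% (WT replicate 5) and 60.6% (Mir483Pat-KO replicate 1) of the family in every library, and miR-29c-3p between 9.03% and 18.3%.

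The question put to the genotype comparison was whether loss of Mir483 moved the matrix-repressing family, and no member was called. By edgeR's quasi-likelihood F-test 0 of the 3 members were called at an adjusted p under 0.05 and 0 had an unadjusted p under 0.05, and limma-voom and DESeq2, which gave miR-29c-3p no adjusted p, called 0 as well. Of all 388 entries tested, 2.06% were called in either direction and 1.03% as lower in Mir483Pat-KO. The log2 fold change of miR-29a-3p was -0.068 (standard error 0.12, 95% interval -0.33 to 0.19, adjusted p = 0.840 by edgeR with Benjamini-Hochberg adjustment over all 388 entries). That of miR-29b-3p was 0.047 (standard error 0.13, 95% interval -0.23 to 0.32, edgeR adjusted p = 0.893), and without TMM, on library totals only, its sign turned, to -0.016. That of miR-29c-3p was -0.021 (standard error 0.20, 95% interval -0.44 to 0.40, edgeR adjusted p = 0.977).

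As folds, the intervals run from 0.795-fold to 1.14-fold for miR-29a-3p, from 0.853-fold to 1.25-fold for miR-29b-3p and from 0.735-fold to 1.32-fold for miR-29c-3p. Changes inside these intervals are not excluded. Log2 fold changes within 0.1 of 0, as all 3 members had, were found in 36.3% of the tested entries, so that closeness is not particular to the family. WT libraries carry the indices 37 to 41 and Mir483Pat-KO libraries the indices 42 to 48, so index order and genotype cannot be told apart between groups, and once the index number entered the fit the log2 fold changes were 0.23 for miR-29a-3p (standard error 0.23), 0.30 for miR-29b-3p (standard error 0.25) and -0.25 for miR-29c-3p (standard error 0.42), each with an edgeR adjusted p of 0.980.

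**Figure D3:**
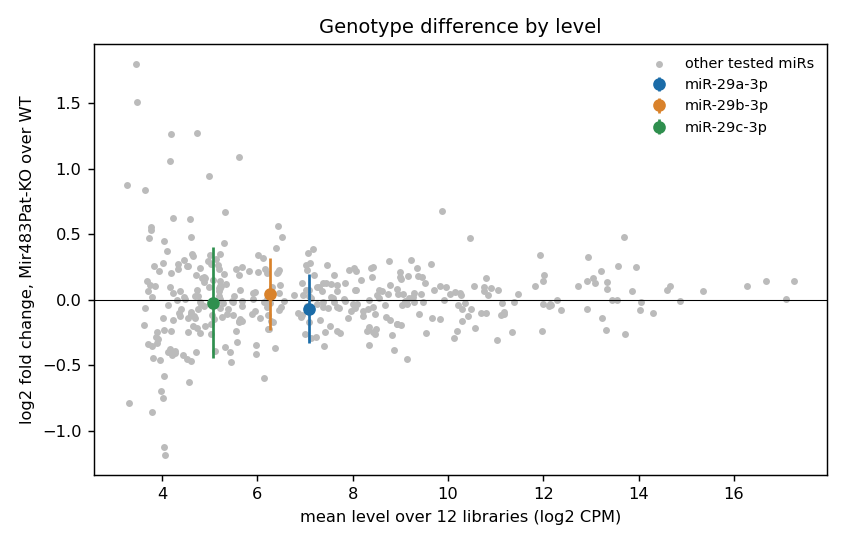
Log2 fold change of Mir483Pat-KO over WT against the mean level (log2 CPM) for the tested entries, with the miR-29 members in colour and their 95% intervals; 2 of the 388 entries lie below the axis. The 3 members sit at -0.068, 0.047 and -0.021, inside the cloud of entries of similar level, and their intervals widen from miR-29a-3p to miR-29c-3p.

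For the less abundant members, the spread between fetuses was close to counting error. Within genotype, the variance of miR-29a-3p was 2.72 times that expected from counting alone, near the median of 2.86 over all 388 entries. For miR-29b-3p the ratio was 1.24 and for miR-29c-3p 1.05. On the log2 scale the SD of miR-29c-3p was 0.22 in WT and 0.36 in Mir483Pat-KO, against 0.27 and 0.31 from counting alone. The coefficient of variation beyond counting that edgeR estimated was 0.136 for miR-29a-3p, 0.130 for miR-29b-3p and 0.165 for miR-29c-3p. Its median over the tested entries was 0.148. At so few reads, these libraries cannot tell how much miR-29c-3p varies between fetuses beyond counting.

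Whether the members vary together was asked of the 12 fetuses, after centring each level on its genotype mean, for the 3 pairs of members. miR-29a-3p and miR-29b-3p, which share the chromosome 6 pair, had r = 0.32 (permutation p = 0.323) and Spearman's rho = 0.31 (permutation p = 0.342), and r = 0.14 without the 2 fetuses farthest from the median of miR-29a-3p. miR-29b-3p and miR-29c-3p, which share the chromosome 1 pair, had r = 0.36 (permutation p = 0.282) and rho = 0.22 (permutation p = 0.499), and r = 0.33 without the 2 farthest fetuses. miR-29a-3p and miR-29c-3p, which share no hairpin pair, had r = -0.22 (permutation p = 0.475) and rho = -0.22 (permutation p = 0.508), and r = -0.12 without the 2 farthest.

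None of these correlations passed the threshold, each having an adjusted p of 0.475 for r and 0.508 for rho by permutation over the 3 pairs. The sign was positive for members that share a hairpin pair and negative for those that do not. For miR-29b-3p with miR-29c-3p it held in 8 of 8 alternative settings (r from 0.32 to 0.48). For each pair with miR-29a-3p it held in 7 of 8. With any 1 of the 12 fetuses left out, all 3 pairs kept their sign. Without WT replicate 1 and Mir483Pat-KO replicate 2, left out after seeing the data, r of miR-29a-3p with miR-29b-3p was -0.15. The difference between the pairs was not tested. Over the 75078 pairs of tested entries the middle 80% of r lay between -0.44 and 0.45, so each of the 3 values is ordinary here. The variance of miR-29b-3p and miR-29c-3p was only 1.24 and 1.05 times that expected from counting. These correlations can therefore neither show nor exclude that the members vary together. Within the 8 fetuses of the lower range of animal numbers, r was 0.49 for miR-29a-3p with miR-29b-3p, 0.40 for miR-29b-3p with miR-29c-3p and 0.054 for miR-29a-3p with miR-29c-3p. The 4 fetuses of the upper range are too few for a value.

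**Figure D4:**
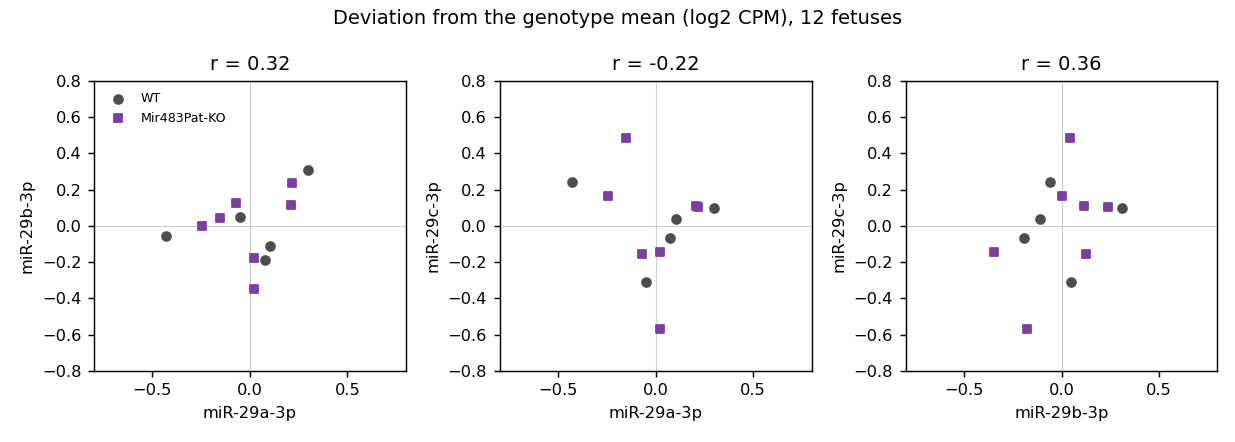
Deviation of each library from its genotype mean (log2 CPM) for the 3 pairs of miR-29 members, 12 fetuses, WT as circles and Mir483Pat-KO as squares. Pearson's r is 0.32, -0.22 and 0.36 from left to right, and in no panel do the points lie along a line.

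The other arms of the 4 hairpins were almost absent from the counts. They are shown because 24 reads of them were counted, against 2442 reads of the 3 members, and because each has a seed of its own, given in capitals (RefSeq, GRCm38.p6).
miR-29a-5p: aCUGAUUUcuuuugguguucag
miR-29b-1-5p: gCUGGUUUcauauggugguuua
miR-29b-2-5p: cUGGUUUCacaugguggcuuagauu
miR-29c-5p: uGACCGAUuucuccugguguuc
miR-29a-5p and miR-29b-2-5p had no read in any library. miR-29b-1-5p had 4 reads, all in WT replicate 1. miR-29c-5p had 20 reads, namely 6, 9 and 5 in Mir483Pat-KO replicates 3, 6 and 7, where miR-29c-3p had 73. None of the other arms passed the filter. A 0 in this table is not an upper bound at the floor of 3 counts. The table holds no count of 1, and of 881 values (1 entry in 1 library each) that the other libraries of the same genotype predict at 5 to 10 counts, 194 are at 0.

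Other miRs of the same setting were read from 2 fixed lists. Of 8 miRs linked to stellate cell activation or fibrosis, all tested, none was called by edgeR, DESeq2 or limma-voom and 1 had an unadjusted p under 0.05. Their median log2 fold change was -0.085, against 0.0028 over all entries. miR-199a-3p, a miR of mesenchymal cells that shares an entry with miR-199b-3p, had the highest, at 0.47 (standard error 0.17, adjusted p = 0.176 by edgeR). miR-221-3p, a regulator of the cell cycle, was at 0.069, and the lowest were miR-214-3p at -0.32 (standard error 0.22) and the p53-induced miR-34a-5p at -0.23 (standard error 0.16). The other arms on this list did not share these values, with miR-199a-5p at -0.073 (standard error 0.15) and miR-214-5p at -0.020 (standard error 0.18).

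Of 6 miRs described as antifibrotic or as hepatocyte miRs, 5 were tested, none was called by the 3 tools and 1 had an unadjusted p under 0.05, with a median log2 fold change of -0.017. miR-133a-3p, a muscle miR, did not pass the filter. miR-30a-5p was at 0.11 and miR-122-5p at 0.0099, while miR-30c-5p, known to target connective tissue growth factor, was at -0.23 (standard error 0.090, adjusted p = 0.191 by edgeR) and miR-19b-3p at -0.16. Over all 388 entries, 17.5% had an unadjusted p under 0.05, beside 1 of 8 and 1 of 5 in these lists.

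The miRs whose level followed the summed miR-29 level most closely over the 12 fetuses, among 385 compared and with each genotype centred, are given as a description since they were picked for that likeness. miR-186-5p had r = 0.85 at 809 CPM in WT, and miR-151-3p had r = 0.83 at 375 CPM. miR-106a-5p had r = 0.81 but rho = 0.57 and only 17.5 CPM in WT. let-7i-5p, of the let-7 family, had r = 0.79, and miR-142a-5p, a leukocyte miR, had r = 0.76 and 9727 CPM in WT. All 12 points of each share their library's scaling and RNA sample.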

How the data were processed

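The authors made small RNA libraries with the TruSeq Small RNA kit, 1 per fetus, aligned and counted reads with miRge 3.0, and deposited whole-number counts per mature miR that were neither normalized nor pooled. The processing notes name GRCm38, and the miR reference is not given in the sources used here. Genotypes came from the sample labels and columns from the animal numbers. Entries were kept by filterByExpr (minimum count 10, total 15), scaled by TMM and tested on genotype with edgeR 4.0.16 (glmQLFit with legacy = TRUE, glmQLFTest, R 4.3.3), with Benjamini-Hochberg adjustment over 388 entries and calls at an adjusted p under 0.05. DESeq2 1.42.0 and limma 3.58.1 were alternatives. Ratios used counts plus 0.5, correlations log2 CPM (prior count 2) and 100000 permutations within genotype. The code was tested on simulated counts for 388 entries. Named miRs were the members, their other arms, miR-483, the 2 highest and 2 lowest fold changes of each of 2 lists and the 5 miRs most like the family. miR-133a-3p, miR-143-3p, miR-199a-5p and miR-214-5p were added after their values were seen. The members and lists were chosen with earlier results of these data known. Other alternatives were scaling, filters, dispersion, covariates and leaving out fetuses. Figures used matplotlib 3.10.9. The mRNA libraries were not analysed here.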

Additional observations from a re-analysis of the deposited data

Results flagged for a closer look

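The log2 ratio of miR-29a-3p to miR-29c-3p was 1.41 in WT replicate 5, away from the other 4 WT libraries, which lay between 2.17 and 2.38. That library had 99 reads of miR-29a-3p, the lowest level of the 12, and 37 of miR-29c-3p, the highest level in WT. Its gap to the nearest WT library was 0.780 of the WT range. Such gaps were looked at in 14 groups of values, and no other was large enough to be noted; about 1 group in 20 would be by chance. In Mir483Pat-KO, replicate 4 had a ratio of 1.41 as well, without standing apart from its group. WT replicate 5 is the WT fetus of the upper range of animal numbers, and the part of that range in its ratio was not tested.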

How the results depend on the processing

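No member of the miR-29 family was called under any of the 14 alternatives that kept all fetuses or a planned subset, nor in the 12 fits that each left out 1 fetus; DESeq2 gave miR-29c-3p no adjusted p. The directions of these small values were not stable. That of miR-29b-3p turned to -0.016 with library size alone, that of miR-29a-3p to 0.23 with an index term (where miR-29b-3p was at 0.30 and miR-29c-3p at -0.25), and that of miR-29c-3p to 0.017 in the lower animal-number range alone. The same lower range put miR-29a-3p at -0.18 (standard error 0.12) and miR-29b-3p at 0.066 (standard error 0.16). The cause of these shifts was not tested. With 1 fetus left out, miR-29a-3p ranged from -0.17 to 0.016 (turning without WT replicate 1), miR-29b-3p from -0.027 to 0.14 (turning without WT replicates 2 or 3 or Mir483Pat-KO replicate 2) and miR-29c-3p from -0.13 to 0.048 (turning without WT replicates 1 or 5 or Mir483Pat-KO replicates 1, 3 or 7).

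The number of DEMs, 8, was 14 with library size alone, 26 with DESeq2, 3 with the replicate block, 5 with the animal-number range, 3 with the index term and 2 in the lower range alone, and 3 to 12 with 1 fetus left out, below 6 without WT replicates 2 or 3 or Mir483Pat-KO replicates 4, 5, 6 or 7. Fetuses that share a replicate number are different animals, and the correlation of their deviations, from -0.24 to 0.23, gave no sign of pairing, with 1 of 5 WT fetuses closest to its own number. With the replicate block miR-29a-3p was at -0.11, miR-29b-3p at 0.095 and miR-29c-3p at -0.023.

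The order of the members held under both alternatives and without any 1 fetus. With 1 fetus left out, the genotype difference of the ratio of miR-29a-3p to miR-29c-3p ranged from -0.19 to 0.090, turning without WT replicates 1, 3 or 4 or Mir483Pat-KO replicates 4 or 5. In the lower range alone, that of the ratio of miR-29a-3p to miR-29b-3p was -0.26 (exact permutation test, p = 0.114, adjusted p = 0.343). Of the correlations, that of miR-29a-3p with miR-29c-3p turned to 0.054 in the lower range, and that of miR-29a-3p with miR-29b-3p to -0.15 without WT replicate 1 and Mir483Pat-KO replicate 2, both chosen after seeing the data; without 1 fetus these ranged from -0.32 to -0.011 and from 0.072 to 0.43. Depth limits miR-29c-3p most, at 14 to 39 reads a library.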
